A study of Mus musculus with 19 samples.

Results

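The genes described here encode the enzymes of cholesterol and fatty acid synthesis and the proteins that control them, in fibroblasts sorted from the mouse peritoneum before and during growth of an ovarian carcinoma. A list of 33 genes was drawn up by name, and 31 of them were found by symbol among the 12799 genes of the count table. Idi1 and Fdft1 were not analysed here. The 31 genes comprised 13 of sterol synthesis, 12 of fatty acid synthesis, elongation and desaturation, 5 of control by the sterol regulatory element binding proteins (SREBPs) and 1 sterol carrier, Stard4. Of these, 17 had enough counts to be tested, among 5980 genes tested in all.

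All mice were C57BL/6;Col1a1-YFP animals, in which the Col1a1 promoter drives a yellow fluorescent protein, so that a sorted fibroblast is a cell in which this collagen promoter is or was active. Tumours were started by intraperitoneal injection of ID8, a line of mouse ovarian carcinoma cells that here carried tdTomato, in 200 µL PBS, and normal mice were given the same volume of PBS alone. Fibroblasts were profiled by MARS-seq, a sequencing method that counts polyA RNA by tags, from 5 normal mice, 5 mice at day 7, 5 mice at day 28 and 4 mice at the end stage, whose day the labels do not give. The peritoneum was dissociated for 40 min with collagenase P, trypsin and DNase before sorting, and only RNA with an integrity number above 8 was used.

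Cells make cholesterol from acetyl-CoA through mevalonate, farnesyl diphosphate, squalene and lanosterol, and make fatty acids by building palmitate from malonyl-CoA and then lengthening and desaturating it. The SREBP transcription factors drive both routes. They are held in the endoplasmic reticulum by Scap and the Insig proteins when sterols are plentiful, and are carried by Scap to the Golgi and cut free when sterols run low. Sterol enzymes are therefore known for moving together when cells take up or lose cholesterol, and for rising in dividing cells that need membrane.

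The promoters of the genes carried a shared feature that the list did not use. Windows from 250 bases before to 50 bases after a start, from RefSeq on build GRCm38.p6, were matched by symbol for 26 of the 33 genes. Scd1, Scd2, Fads1, Fdps, Sqle, Fdft1 and Stard4 were not matched. The NF-Y box, searched as CCAAT on both strands, was present for 22 of the 26 genes (84.6%), against 41.1% of 27025 genes with a window and 42.4% of the 4689 tested genes with a window. All 12 sterol synthesis genes with a window held it, as did 6 of 9 fatty acid genes and 4 of 5 SREBP control genes. The Sp1 box, searched as GGGCGG on both strands, was found for 21 of 26 genes (80.8%), against 38.2% of all genes and 73% of the tested genes. The sterol regulatory element, searched as TCACNCCAC on both strands, was found for 1 of 26, Hmgcs1, against 1.44% of all genes and 1.6% of the tested genes. A match describes these letters only. The 250 bases before the start are shown for Hmgcs1, the gene with the sterol element, for Mvk, whose window held the box 5 times, and for Srebf1, whose RNA is among the described differences. Each is written 5′ to 3′ on the gene's strand, with capitals marking CCAAT or its complement ATTGG and, in Hmgcs1, the sterol element.
Hmgcs1 promoter, chr13:119690101-119690350, + strand: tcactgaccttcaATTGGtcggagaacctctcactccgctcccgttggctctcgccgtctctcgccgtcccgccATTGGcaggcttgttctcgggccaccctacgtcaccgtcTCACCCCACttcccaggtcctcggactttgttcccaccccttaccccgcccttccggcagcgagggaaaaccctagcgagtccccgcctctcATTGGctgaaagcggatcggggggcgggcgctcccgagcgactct
Mvk promoter, chr5:114444019-114444268, + strand: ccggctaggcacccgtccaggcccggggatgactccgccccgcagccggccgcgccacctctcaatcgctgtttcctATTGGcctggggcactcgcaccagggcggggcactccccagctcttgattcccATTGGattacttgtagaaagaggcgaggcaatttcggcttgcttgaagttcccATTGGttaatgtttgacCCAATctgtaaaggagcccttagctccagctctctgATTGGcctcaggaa
Srebf1 promoter, chr11:60222582-60222831, - strand: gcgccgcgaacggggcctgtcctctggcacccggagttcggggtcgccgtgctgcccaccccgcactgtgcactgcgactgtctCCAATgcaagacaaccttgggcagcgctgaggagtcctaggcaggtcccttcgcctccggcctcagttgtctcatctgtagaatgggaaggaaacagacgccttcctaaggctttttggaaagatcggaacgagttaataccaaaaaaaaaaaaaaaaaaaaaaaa
In Hmgcs1 the sterol element TCACCCCAC began 137 bases before the start. In Mvk the boxes began 173, 120, 67, 50 and 14 bases before the start, and in Srebf1 the single box began 166 bases before it. RefSeq has 3 windows for Srebf1, and 1 of the other 2 also holds 1 NF-Y box. Every coordinate is of GRCm38.p6, whereas the deposited counts were made on GRCm39, per the submitters' processing notes.

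Total counts ran from 66061 to 2449339 per library, a range of 37.1-fold, with medians of 304626 in normal, 172313 in day 28 and 378400 in end-stage libraries. Day 28 replicates 1 and 2 and end-stage replicate 5 held under 150000 counts. A floor of 3 counts corresponded to between 1.23 and 45.4 CPM, a gene's count scaled to a common library total, and such floors cover counting error only. Levels below are CPM scaled by TMM factors. The 10 fibroblast markers summed to between 25180 and 53430 CPM in every library. Of 12 adipocyte markers 5 could be summed, and Adipoq, Plin1, Cidec, Adrb3, Lep, Plin4 and Cidea were not analysed here. The 5 ran from 66.5 to 121 CPM at day 7, which overlapped normal and end stage, and from 41.1 to 76.4 CPM at day 28. They ran from 39.04 to 92.6 CPM in normal libraries and from 94.9 to 168 CPM in end-stage libraries, without overlap between normal and end stage. The gap was narrow, and end-stage replicate 5, at 94.9 CPM, held 11 counts of them. Fabp4 gave 313 of the 412 counts in end-stage replicate 4, while Retn had 0 counts in every end-stage library. Among single tested genes, 3.18% did not overlap in this comparison. The 10 macrophage markers ran from 60.0 to 105 CPM in normal libraries and from 35.9 to 71.1 CPM at day 7. They ran from 0 to 270 CPM at day 28 and from 104 to 408 CPM at the end stage, which overlapped. The 13 mesothelial markers averaged 833 ± 401 CPM in normal libraries (SD, n = 5), 524 ± 297 at day 7 (n = 5), 645 ± 157 at day 28 (n = 5) and 497 ± 149 at the end stage (n = 4). Of the 9 tested, 9 were lower at day 7 and 8 at the end stage against normal, with median log2 fold changes of -0.86 and -0.71. The 6 skeletal muscle markers averaged 218 ± 115, 278 ± 52.7, 149 ± 104 and 140 ± 104 CPM in the same order, and all 4 tested were lower than normal at day 28 and at the end stage. None of these mesothelial or muscle markers was called against normal. Of the macrophage markers 2 were tested. For end stage against day 7, 2 of 2 were called higher, without overlap, at log2 fold changes of 2.96 and 3.97. Of all 5980 tested genes, 24 were called higher in that comparison. In the same order of groups, the 5 Schwann cell markers averaged 148 ± 64.1, 240 ± 140, 402 ± 267 and 193.5 ± 140 CPM. Day 28 replicate 5 held 816 CPM of them. The 5 endothelial markers averaged 91.9 ± 60.7, 82.8 ± 12.2, 151 ± 53.0 and 102 ± 32.3 CPM. The 2 epithelial markers averaged 49.3 ± 14.0, 38.8 ± 17.8, 46.4 ± 32.6 and 53.9 ± 34.1 CPM. The part of these other cells in the values below was not tested. In sorted bulk RNA, fewer cells of a type and less RNA per cell cannot be told apart.

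None of the 17 tested genes passed the threshold in any of the 6 comparisons between groups (edgeR quasi-likelihood test, Benjamini-Hochberg adjusted p under 0.05 over all 5980 genes). The share of all genes that passed was 0.0502% for day 7 against normal, 0% for day 28 against normal, 0.401% for end stage against normal, 0% for day 28 against day 7, 0.468% for end stage against day 7 and 0.401% for end stage against day 28. A joint test of the 3 stages against normal called 0 of the 17 and 0.686% of all genes. The comparisons share libraries, so they are not separate lines of evidence. The p-values weigh a difference between groups against the spread between mice within groups. That spread was estimated in 1 model of the 4 groups.

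At an unadjusted p under 0.05, the count against normal was 0 of 17 at day 7 (3.48% of all genes), 0 of 17 at day 28 (7.06% of all genes) and 2 of 17 at the end stage, Scd2 and Scd1 (7.04% of all genes). It was 0 for day 28 against day 7 (9% of all genes), 2 for end stage against day 7, Scd2 and Srebf1 (7.49% of all genes), and 1 for end stage against day 28, Scd2 (9.72% of all genes). The joint test had 1, Scd2, beside 8.96% of all genes. Groups without overlap were found for 1 of 17 genes at the end stage against normal and 1 against day 7, beside 3.18% and 3.29% of all genes. In the other 4 comparisons they were found for 0 of 17, beside 0.753% at day 7 and 1.09% at day 28 against normal, 1.37% for day 28 against day 7 and 3.11% for end stage against day 28. DESeq2 and limma-voom also called 0 of the 17 in each comparison after adjustment. Unadjusted, the counts in the same order were 0, 0, 2, 1, 2 and 1 with DESeq2 and 0, 0, 3, 0, 2 and 0 with limma-voom.

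The measured differences leaned lower at the end stage. The median log2 fold change of the 17 genes was 0.00 at day 7 and 0.08 at day 28 against normal, beside -0.02 for all tested genes in both. At the end stage against normal it was -0.20, beside -0.02 for all genes, and 12 of 17 values lay below 0, against 52% of all genes. Against day 28 it was -0.19, beside -0.01, and 15 of 17 values lay below 0, against 50.5% of all genes. Against day 7 it was -0.08, beside -0.00, with 11 of 17 below 0. Most of the values below 0 were smaller than their errors. Against normal only those of Scd2, Scd1 and Srebf1 were larger. No single gene carried an adjusted p that passed, and all 3 comparisons rest on the same 4 end-stage libraries.

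**Figure D1:**
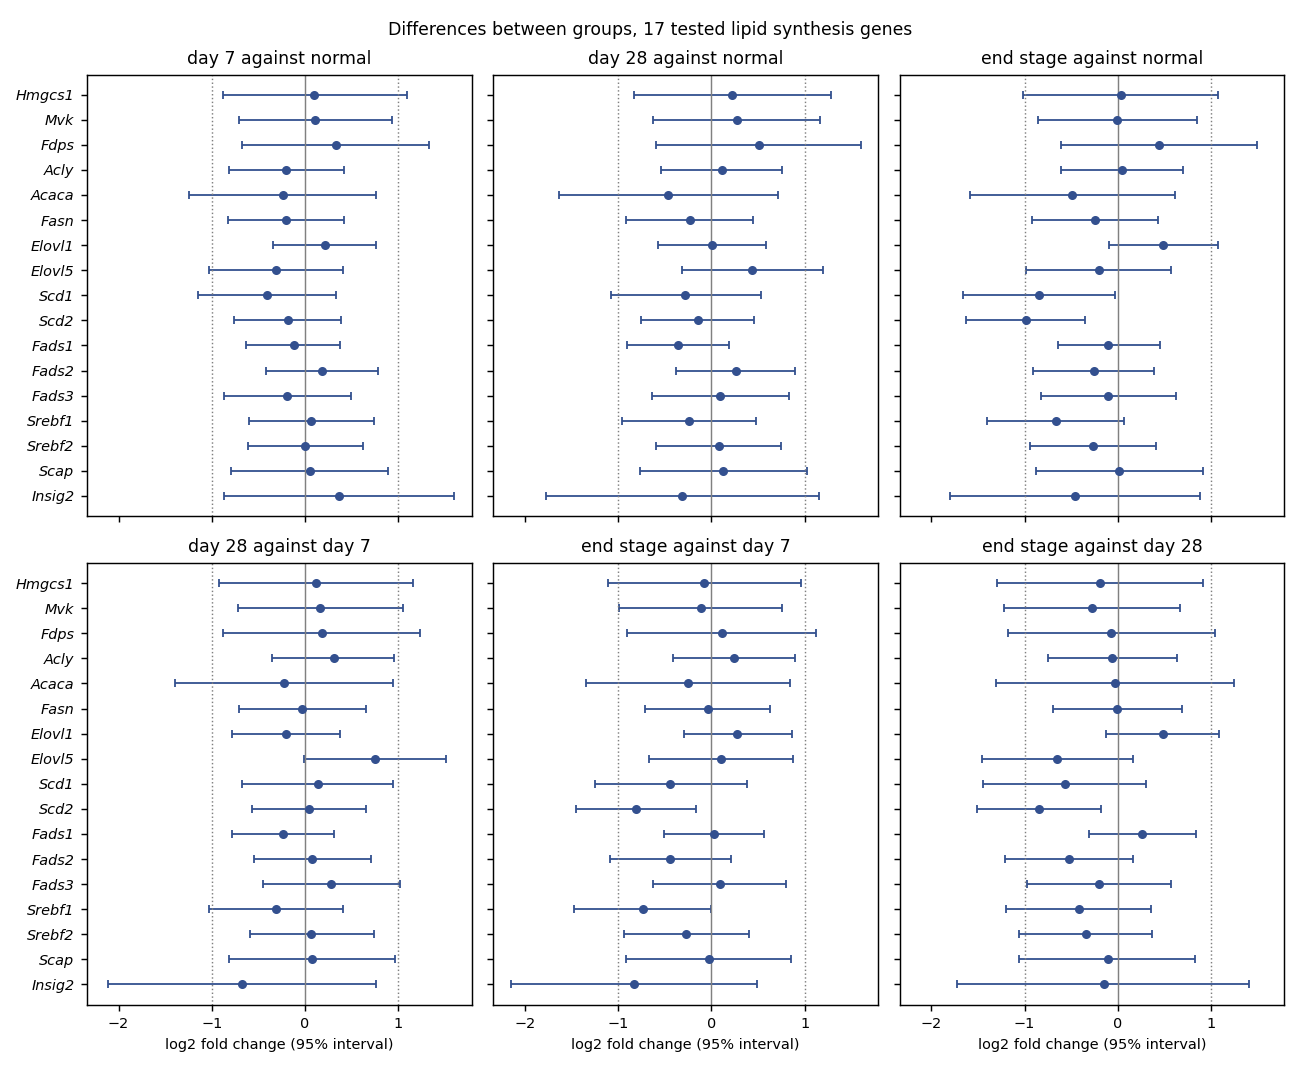
Points give the log2 fold change of each of the 17 tested genes in each of 6 comparisons, and bars give its 95% interval from the edgeR fit. Dotted lines mark a change of 2-fold either way, at -1 and 1. In the end-stage against normal panel only the intervals of Scd2 and Scd1 lie wholly below 0.

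The intervals, which include the spread between mice, give the sizes of difference that these libraries leave possible. For day 7 against normal, the 95% interval of the log2 fold change lay within 2-fold either way for 11 of 17 genes, against 49.4% of all tested genes. For day 28 and for the end stage against normal it did so for 9 of 17, against 34.9% and 37.7% of all tested genes. For end stage against day 28 it did so for 4 of 17, against 28.4%. Acly, Fasn and Fads1 stayed within 2-fold in all 6 comparisons, and Hmgcs1, Fdps, Acaca and Insig2 in none.

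Scd2 and Scd1 encode stearoyl-CoA desaturases, which turn saturated into monounsaturated fatty acids such as oleate. Scd2 was read at 147, 230.3, 289, 187 and 197 CPM in the normal libraries, at 238, 253, 126, 172 and 159.5 CPM at day 7, at 136, 257, 135, 341 and 97.9 CPM at day 28, and at 104, 133, 78.1 and 121 CPM at the end stage. All 4 end-stage libraries lay below all 5 normal ones. Day 7 and day 28 overlapped with both. The means were 210.1 ± 53.1 CPM in normal (SD, n = 5), 189.7 ± 53.8 at day 7 (n = 5), 193 ± 102 at day 28 (n = 5) and 109 ± 23.9 at the end stage (n = 4), from 421, 507, 163 and 292 counts.

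The log2 fold change of Scd2 at the end stage against normal was -0.99 ± 0.32 (SE; 95% interval -1.63 to -0.35; edgeR unadjusted p = 0.00346, adjusted p = 0.202). It was -0.81 ± 0.32 against day 7 (adjusted p = 0.461) and -0.85 ± 0.33 against day 28 (adjusted p = 0.356). The difference did not pass the threshold in any of the 3. Between normal, day 7 and day 28 the differences were smaller than their errors, at -0.18 ± 0.28, -0.14 ± 0.30 and 0.04 ± 0.30. Without day 28 replicate 4, the library with 341 CPM, the end stage against day 28 value was -0.48. In the authors' deposited table the end stage against normal value of Scd2 was -0.996, with an adjusted p of 0.275.

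Scd1 was read at 65.5, 106, 89.8, 64.7 and 86.7 CPM in normal libraries, at 33.2, 55.3, 58.0, 87.9 and 69.8 CPM at day 7, at 30.2, 22.4, 93.8, 112 and 59.7 CPM at day 28, and at 55.3, 65.5, 45.4 and 0 CPM at the end stage. The 0 belongs to end-stage replicate 5, where a count of 0 allows up to 26.5 CPM. Day 28 split into 2 libraries at or below 30.2 CPM, which are the shallow ones, and 3 at or above 59.7 CPM. The end-stage value against normal was -0.85 ± 0.40 (edgeR unadjusted p = 0.0419, adjusted p = 0.67), and the groups overlapped. Without end-stage replicate 5 it was -0.63 (unadjusted p = 0.104). Scd1 and Scd2 are close paralogs and RefSeq neighbours with Scd4 between them. How reads matching both were handled is not given in the sources used here. Their split is uncertain.

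Elovl1 and Elovl5 encode fatty acid elongases, Elovl1 for saturated very long chains and Elovl5 for polyunsaturated chains. Elovl1 was read at 126, 126, 176, 82.1 and 116 CPM in normal libraries, at 127, 166, 133, 106 and 193 CPM at day 7, at 90.5, 44.8, 199, 153 and 112 CPM at day 28, and at 159, 201, 167 and 173 CPM at the end stage. The 4 end-stage libraries were the tightest group, above 4 of 5 normal libraries, and the normal library at 176 CPM overlapped them. Elovl1 had the highest value of the 17 genes at the end stage against normal, 0.49 ± 0.29 (edgeR adjusted p = 0.79). Elovl5 was read at 60.0, 88.8, 31.2, 84.6 and 59.8 CPM in normal libraries, at 88.6, 35.5, 56.2, 54.5 and 39.9 CPM at day 7, at 45.2, 112, 41.1, 168 and 78.8 CPM at day 28, and at 35.8, 80.0, 52.3 and 69.0 CPM at the end stage. Day 28 held both the highest library and libraries as low as those at day 7, and the groups overlapped. For day 28 against day 7 Elovl5 was at 0.75 ± 0.37 (edgeR unadjusted p = 0.0522, adjusted p = 0.56).

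Fads1 and Fads2 encode the front-end desaturases that make long polyunsaturated fatty acids, and lie side by side with Fads3 in the RefSeq annotation. Fads1 was read at 180, 103, 203, 129 and 167 CPM in normal libraries, at 133, 122, 130.2, 138 and 186 CPM at day 7, at 136, 67.1, 117, 96.7 and 167 CPM at day 28, and at 153, 179, 117 and 129 CPM at the end stage. Its largest difference was -0.36 ± 0.27 at day 28 against normal (edgeR adjusted p = 0.811). Fads2 was read at 120, 122, 137, 117 and 86.7 CPM in normal libraries, at 116, 257, 87, 86.7 and 133 CPM at day 7, at 166, 190.2, 117, 107 and 141 CPM at day 28, and at 153, 104, 73.2 and 51.8 CPM at the end stage. All groups of both genes overlapped, and Fads2 at the end stage spread from among the lowest to among the highest values. For end stage against day 28 Fads2 was at -0.52 ± 0.34 (edgeR adjusted p = 0.657). The correlation of the neighbours Fads1 and Fads2 across the 19 libraries was 0.01 after removal of group means, and 0.13 without the 3 libraries under 150000 counts, given as a description. Fads3, which acts on sphingoid bases, ran from 29.3 to 82.0 CPM over all libraries, with differences from -0.20 to 0.28.

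Acly, Acaca and Fasn encode the cytosolic route from citrate to palmitate: ATP citrate lyase makes acetyl-CoA, acetyl-CoA carboxylase makes malonyl-CoA, and fatty acid synthase joins them. Acly was read at 98.2, 75.9, 85.9, 97.1 and 50.8 CPM in normal libraries, at 55.4, 82.9, 77.5, 57.0 and 79.8 CPM at day 7, at 30.2, 89.5, 129, 107 and 66.8 CPM at day 28, and at 97.6, 94.6, 54.4 and 104 CPM at the end stage. Its means were 81.6 ± 19.5 CPM in normal (SD, n = 5) and 87.5 ± 22.4 at the end stage (n = 4), and the difference was 0.05 ± 0.32, with a 95% interval from -0.61 to 0.70. Acaca was read at 21.8, 27, 46.9, 24.9 and 38.8 CPM in normal libraries, at 60.9, 7.90, 29.6, 32.2 and 6.65 CPM at day 7, at 45.2, 44.8, 23.5, 5.09 and 19.1 CPM at day 28, and at 19.5, 12.1, 24.5 and 43.2 CPM at the end stage. Libraries of 1 group differed several fold, on 20 pooled counts at day 28, and the end-stage difference of -0.49 ± 0.54 was smaller than its error. Fasn ran from 30.2 to 89.8 CPM over all libraries, and its 6 differences lay between -0.24 and -0.01, each smaller than its error.

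Among the control genes, Srebf1, which encodes the SREBP forms that mainly drive fatty acid genes, was the only tested control gene whose end-stage libraries did not overlap those of another group. Srebf1 was read at 49.1, 100.3, 156, 144 and 179 CPM in normal libraries, at 133, 142, 127, 145 and 123 CPM at day 7, at 30.2, 224, 41.1, 76.4 and 158 CPM at day 28, and at 81.3, 102, 77.2 and 51.8 CPM at the end stage. Day 7 was the tightest group, and all 4 end-stage libraries lay below all 5 day 7 ones, the other such case among the 17 genes. End-stage and normal libraries overlapped through normal replicates 1 and 2. The means were 126 ± 51.6 CPM in normal (SD, n = 5), 134 ± 9.51 at day 7 (n = 5), 106 ± 82.7 at day 28 (n = 5) and 78.0 ± 20.6 at the end stage (n = 4). Against day 7 the end-stage value was -0.73 ± 0.36 (edgeR unadjusted p = 0.0497, adjusted p = 0.664), and against normal it was -0.66 ± 0.36 (adjusted p = 0.752).

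Srebf2, whose product mainly drives sterol genes, was read at 153, 122, 141, 144 and 146 CPM in normal libraries, at 49.9, 55.3, 136, 202 and 243 CPM at day 7, at 151, 246, 93.8, 148 and 131 CPM at day 28, and at 120.4, 136, 117 and 86.3 CPM at the end stage. Normal libraries were close together, while those of day 7 ran from well below to well above them. The mean was 141 ± 11.5 CPM in normal (SD, n = 5) and 115 ± 20.7 at the end stage (n = 4), a difference of -0.27 ± 0.33 that was smaller than its error (edgeR adjusted p = 0.965). Insig2, which retains Scap in the endoplasmic reticulum, was read at 10.9, 33.5, 19.5, 22.4 and 14.9 CPM in normal libraries, at 33.2, 55.3, 19.5, 35.9 and 0 CPM at day 7, at 15.1, 11.2, 11.7, 35.6 and 11.9 CPM at day 28, and at 16.3, 2.42, 28.2 and 0 CPM at the end stage. Its groups overlapped widely, and its lowest difference was -0.83 ± 0.65 for end stage against day 7 (edgeR adjusted p = 0.935). Scap, the escort itself, ran from 0 to 111.4 CPM over all libraries, and its 6 differences lay between -0.11 and 0.13.

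**Figure D2:**
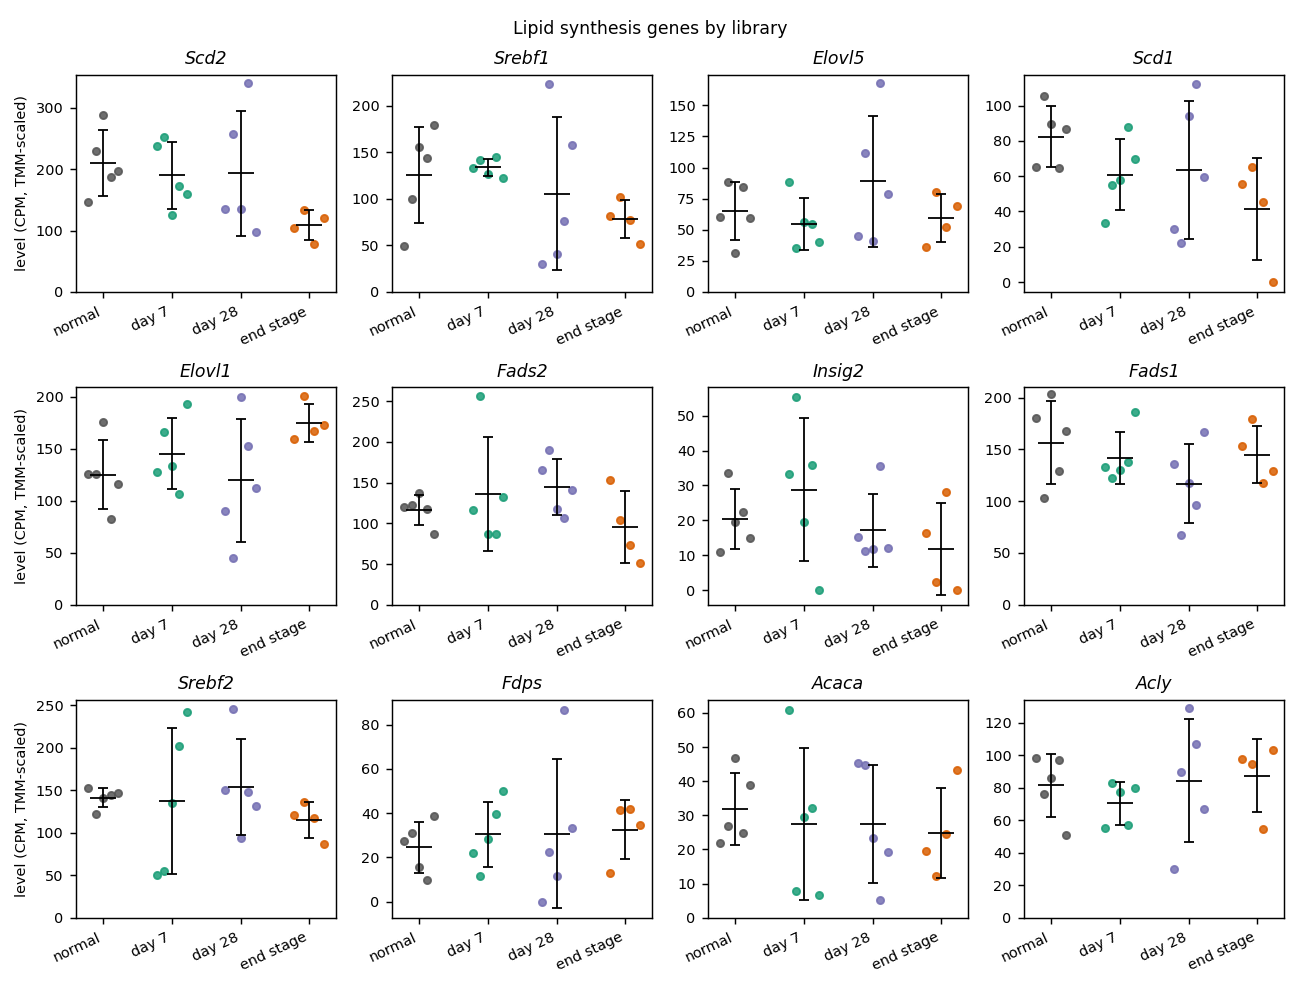
Each point is the TMM-scaled level in CPM of 1 library for the 12 genes with the smallest p in the joint test, by group, with the mean (long bar) and SD (error bar). The 4 end-stage points of Scd2 lie between 78.1 and 133 CPM, below the 5 normal points, and the day 28 points spread most in most panels.

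Of the sterol synthesis genes, 3 were tested. Fdps, which makes farnesyl diphosphate for sterols and for protein prenylation, was read at 27.3, 30.9, 15.6, 9.96 and 38.8 CPM in normal libraries, at 22.2, 11.8, 28.4, 39.6 and 49.9 CPM at day 7, at 0, 22.4, 11.7, 86.5 and 33.4 CPM at day 28, and at 13.0, 41.2, 41.7 and 34.5 CPM at the end stage. The groups overlapped, and its highest difference was 0.51 ± 0.54 at day 28 against normal (edgeR adjusted p = 0.89), which was smaller than its error. Without day 28 replicate 4, the library with 86.5 CPM, it was -0.22. Hmgcs1, the synthase that opens the mevalonate pathway, averaged 42.7 ± 29 CPM in normal (SD, n = 5), 48.4 ± 24.6 at day 7 (n = 5), 44.1 ± 39.9 at day 28 (n = 5) and 45.5 ± 15.3 at the end stage (n = 4). Mvk, mevalonate kinase, averaged 44.3 ± 19.3 CPM in normal (SD, n = 5) and 44.3 ± 24.4 at the end stage (n = 4). Neither gene had a difference larger than its error in any of the 6 comparisons, and the end-stage intervals against normal ran from -1.02 to 1.08 for Hmgcs1 and from -0.86 to 0.85 for Mvk.

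The other 10 sterol enzymes had too few counts to be tested. Sqle, the squalene monooxygenase that is a control point of the later pathway, had 17, 23, 8 and 38 pooled counts in the normal, day 7, day 28 and end-stage groups. It averaged 9.32 ± 4.08, 5.97 ± 3.98, 8.98 ± 10.1 and 9.08 ± 3.39 CPM over the libraries of these groups (SD, n = 5, 5, 5 and 4). Lss, the lanosterol synthase, had 4, 5, 0 and 8 counts, and Cyp51, the lanosterol demethylase, had 25, 21, 7 and 33 counts. These counts are too few to order the groups. Dhcr7, which makes cholesterol from its last precursor, averaged 25.04 ± 13.9, 19.5 ± 8.48, 11.6 ± 10.9 and 24.2 ± 14.4 CPM, and Sc5d, the desaturase just before it, averaged 16.2 ± 8.67, 21.97 ± 14.5, 11.1 ± 11.8 and 8.37 ± 3.75 CPM. End-stage replicate 4, the deepest library, gave 32 of the 38 end-stage counts of Sqle and 33 of the 38 of Sc5d. Pmvk, Mvd, Msmo1, Nsdhl and Hsd17b7 had between 2 and 47 counts per group. Of the remaining untested genes, Elovl6, which elongates palmitate, had 27, 43, 4 and 38 counts. Acss2, which makes acetyl-CoA from acetate, had 21, 27, 7 and 24 counts. Insig1, a retention factor that SREBP itself induces, had 28, 54, 18 and 18 counts and averaged 13.5 ± 5.28, 17.4 ± 6.55, 23.0 ± 16.7 and 9.47 ± 5.33 CPM. Stard4 had 9, 17, 2 and 13 counts. With no filter on low counts, 0 of the 31 genes were called, and among these 14 only Elovl6 for day 28 against day 7 had an unadjusted p under 0.05, at -1.79 ± 0.87 (edgeR unadjusted p = 0.0425, adjusted p = 0.572).

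Summed over each branch, the levels of the sterol and fatty acid genes overlapped between all groups, and the summed SREBP control genes were lower in every end-stage library than in any normal or day 7 library. The 13 sterol genes summed to 211 ± 51.2 CPM in normal libraries (SD, n = 5), 241 ± 45.2 at day 7 (n = 5), 214 ± 48.3 at day 28 (n = 5) and 210.2 ± 18.2 at the end stage (n = 4). The 12 fatty acid genes summed to 1023 ± 137, 963 ± 128, 967 ± 184 and 873 ± 118 CPM in the same order. The 5 SREBP control genes summed to 295, 320.3, 375, 356 and 397 CPM in normal libraries, to 310.2, 292, 335, 437 and 465 CPM at day 7, to 241, 525.8, 258, 326 and 372 CPM at day 28, and at the end stage to 270.0, 284, 278 and 224 CPM. Srebf1 and Srebf2 held most of the counts of each of these sums, and end-stage replicate 5 held 26 counts in all. Among single genes, 3.18% of all those tested did not overlap at the end stage against normal, and 3.29% against day 7. All 4 end-stage sums lay below all normal and day 7 sums, narrowly at 284 against 292 CPM, and day 28 overlapped every group. The same 4 libraries held adipocyte marker sums of 94.9 to 168 CPM, macrophage marker sums of 104 to 408 CPM and mesothelial marker sums of 318 to 682 CPM, and the part of such cells was not tested. The sums of the branches got no test, since the list was chosen with results known.

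**Figure D3:**
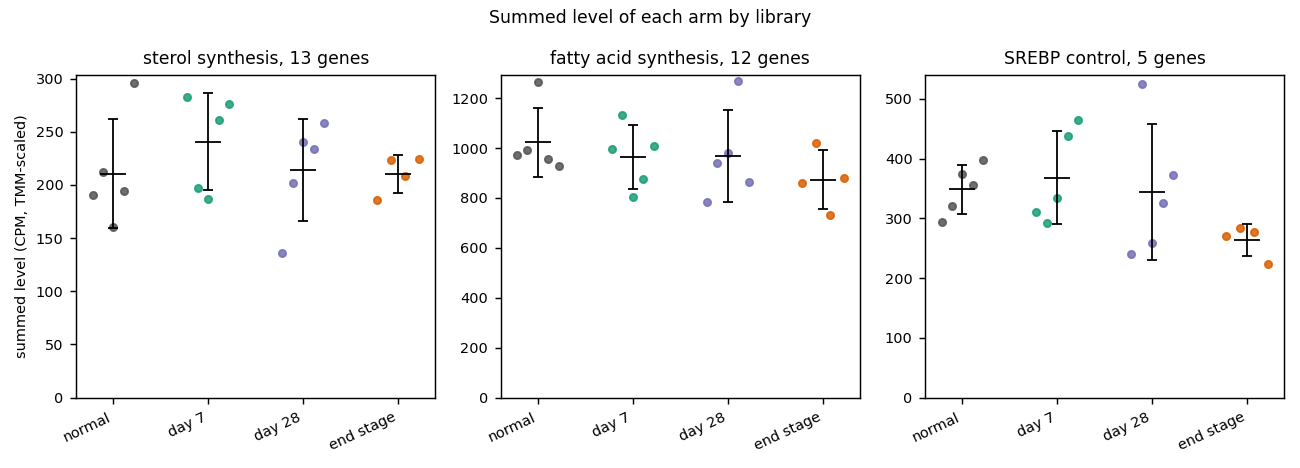
Each point is the sum of the TMM-scaled CPM of 1 library over the 13 sterol synthesis genes, the 12 fatty acid synthesis genes or the 5 SREBP control genes, by group, with mean and SD. The end-stage SREBP control sums, 224 to 284 CPM, lie narrowly below all normal sums, the lowest at 295 CPM. The sterol sums of the 4 groups overlap.

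Correlations between the genes were near those of all genes. After removal of the group means, the median Pearson correlation over the 136 pairs of tested genes was 0.03 across the 19 libraries, beside 0.01 over all pairs of the 5980 tested genes, and 53.7% of pairs lay above 0, against 50.7%. The highest values were 0.67 for Acly with Scap and 0.67 for Hmgcs1 with Scap, and the lowest was -0.55. Without the 3 libraries under 150000 counts, the first pair was at 0.10 and the second at 0.23, so both values rest on those libraries. Scd1 and Scd2 were at -0.05 with all libraries and at 0.33 without those 3. Srebf1 with Scd2 was at 0.28 and 0.11, and with Scd1 at 0.11 and -0.06. These values share library depth and are given without a p. At the counts of these libraries a weak correlation is no finding, and joint variation of the genes was not tested.

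**Figure D4:**
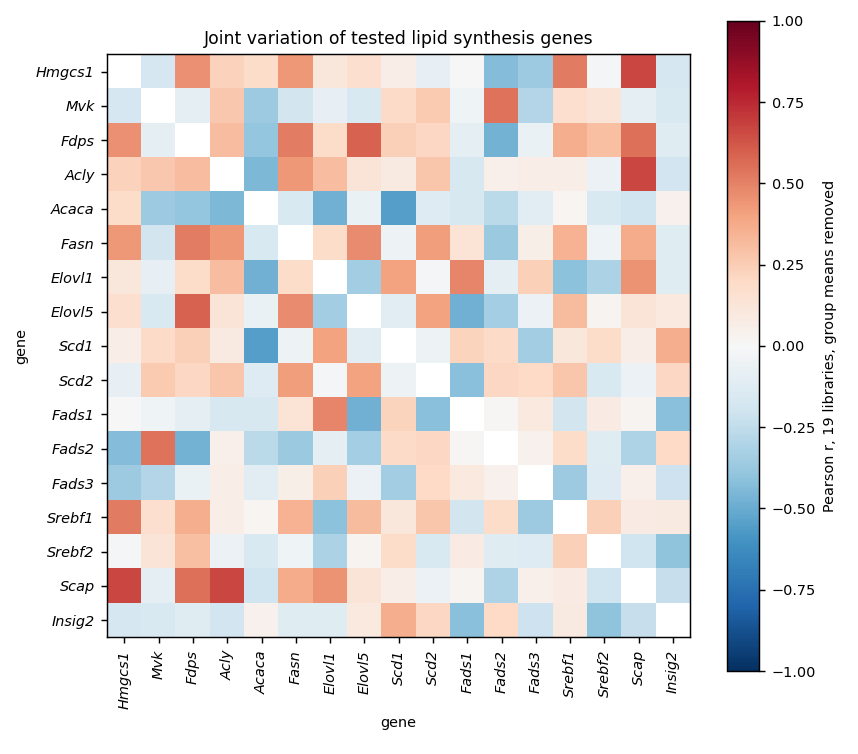
The colour of each cell is the Pearson correlation, from -1 (blue) to 1 (red), of the log2 CPM of 2 tested genes across the 19 libraries after removal of group means. The panel holds no block of red along a branch, and its highest cells are those of Scap with Acly and Hmgcs1, at 0.67, which were at 0.10 and 0.23 without the 3 shallow libraries.

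Of 89 further genes of sterol and fatty acid synthesis, SREBP processing, sterol uptake and efflux, and fatty acid oxidation and storage, 79 were in the table and 45 were tested. None of the 45 was called by edgeR in any of the 6 comparisons. Beside 3.48% to 9.72% of all genes, between 0 and 4 of the 45 had an unadjusted p under 0.05 in each. At the end stage against normal they included Vldlr, a receptor for triglyceride-rich lipoproteins, at -1.18 ± 0.55 (adjusted p = 0.649; -2.06 with an adjusted p of 0.111 without end-stage replicate 3), Cyp27a1, a sterol hydroxylase, at -0.86 ± 0.38 (adjusted p = 0.581), and Cpt1a. Of the 13 tested genes of uptake and efflux 7 were higher and 6 lower, with a median of 0.26 beside -0.02 for all genes.

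Cpt1a, which admits fatty acids to mitochondria for oxidation, was read at 70.9, 54.0, 23.4, 82.1 and 35.9 CPM in normal libraries, at 94.2, 63.2, 102, 92.9 and 123 CPM at day 7, at 90.5, 78.3, 93.8, 45.8 and 54.9 CPM at day 28, and at 97.6, 94.6, 107 and 129 CPM at the end stage. The 4 end-stage libraries lay above all normal ones, the 1 case without overlap among the 45 genes, beside 3.18% of all genes. The difference was 0.97 ± 0.33 (edgeR unadjusted p = 0.00522, adjusted p = 0.254). Of the 13 tested oxidation and storage genes 7 were higher and 6 lower, with a median of 0.08. At day 7 against normal Cpt1a was at 0.83 ± 0.31 and Cpt2, which acts after it at the inner membrane, at -0.99 ± 0.39 (edgeR adjusted p = 0.999 for both). Cpt2 was at 1.00 ± 0.44 for day 28 against day 7 (adjusted p = 0.533).

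Mlycd, which breaks malonyl-CoA down, was read at day 28 at 75.4, 44.8, 52.8, 81.5 and 69.2 CPM, against 21.8, 20.6, 31.2, 52.3 and 29.9 CPM in normal libraries, 16.6, 51.3, 25.5, 12.4 and 29.9 CPM at day 7, and 13.0, 17.0, 28.2 and 8.63 CPM at the end stage. Day 28 lay above the end stage without overlap, 1 of 2 such cases among the 45 genes, beside 3.11% of all genes. These levels rest on 5, 4, 9, 16 and 29 counts at day 28 and on 4, 7, 69 and 1 at the end stage. The floor of 3 counts was 45.4 and 35.7 CPM in day 28 replicates 1 and 2, and 26.5 CPM in end-stage replicate 5. Part of the gap therefore lies near the counting floor. Day 28 and day 7 overlapped through 1 library. The value was -1.71 ± 0.46 for end stage against day 28 (edgeR adjusted p = 0.0839) and 1.32 ± 0.42 for day 28 against day 7 (adjusted p = 0.423). DESeq2 called the first (adjusted p = 0.0399) and limma-voom the second (adjusted p = 0.0317). Against normal at day 28, Mlycd was at 1.05 ± 0.42 (edgeR adjusted p = 0.624). Nr1h3, a sterol-sensing nuclear receptor, was at 1.42 ± 0.47 in that comparison (adjusted p = 0.572), Stard3, a late endosomal sterol carrier, at 1.07 ± 0.49 (adjusted p = 0.699), and Hadha, of mitochondrial oxidation, at 0.71 ± 0.28 (adjusted p = 0.624). For day 28 against day 7, Acat1, a mitochondrial thiolase, was at -1.09 ± 0.48 (adjusted p = 0.533) and Cyb5a, the cytochrome that feeds electrons to the desaturases, at -0.80 ± 0.36 (adjusted p = 0.544). None of the values in this paragraph passed the threshold with edgeR.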

How the data were processed

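Sorted Col1a1-YFP+ peritoneal fibroblasts of 19 mice were profiled by MARS-seq, per the labels' protocols. The authors deposited a table of raw counts, per its headers. The normalized signal that the authors deposited equals the count divided by 1 size factor per library for 100% of values in every library, within 0.006 plus 0.0001 times the value. It was used for that check alone. The authors' deposited log2 fold changes and p-values were set beside the values computed here. The deposited table of thresholds gives other values of the authors, an adjusted p of at most 0.1 among them. The submitters' processing notes name DESeq2 and GRCm39, without versions. Not given in the sources used here were aligner, annotation and use of molecular identifiers.

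Counts were tested with edgeR 4.0.16 in R 4.3.3 (TMM, filterByExpr with a minimum count of 10, robust quasi-likelihood test, 1 model of 4 groups over 19 libraries, no covariate). Benjamini-Hochberg adjustment ran over 5980 genes, which held 93.2% to 94.9% of each library's counts, and the threshold was an adjusted p of 0.05. The filter corresponds to about 32.8 CPM in a library of median depth. The common biological coefficient of variation was 0.334. The steps were first run on simulated counts with the same spread for every gene, and no result above rests on that run. Alternatives used DESeq2 1.42.0, limma-voom 3.58.1, other scalings and filters, single libraries left out, libraries under 150000 counts left out, and counts thinned to 200000 per library. Values in every library are given for the 12 genes with the smallest p in the joint test of the 3 stages, since none was called. Of the other pathway lists, up to 3 genes with the smallest p in a comparison are named, and Cpt1a and Mlycd are given by library, chosen after their values were seen. The result of 1 gene named by this rule is not reported here. The genes and lists were chosen with earlier results of these data known. The replicate numbers mark separate mice, per the labels, and were not used as pairs.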

Additional observations from a re-analysis of the deposited data

Results flagged for a closer look

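A library far from the others of its group was looked for in 84 groups of values, the tested genes and the branch sums by group, and 4 were found. Chance alone marks about 1 in 20 such groups. Fads1 stood at 186.1 CPM in day 7 replicate 5, while the other 4 day 7 libraries ran from 122.4 to 137.5 CPM. Fads2 stood at 256.6 CPM in day 7 replicate 2, with the others between 86.69 and 132.9 CPM. Insig2 stood at 35.63 CPM in day 28 replicate 4, with the others between 11.19 and 15.08 CPM. The summed level of the fatty acid genes stood at 1265 CPM in normal replicate 3, with the others between 929.2 and 993.1 CPM. The library named differed from gene to gene.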

How the results depend on the processing

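The count of called lipid synthesis genes was 0 under each of 29 alternatives for the 6 comparisons, among 13 to 31 genes tested. Without the libraries under 150000 counts, the median correlation between the genes was -0.01 rather than 0.03. With the replicate block, 0 of the 17 genes were called, and the genes called in all were 30 for end stage against normal. The numbers mark separate mice, per the labels, and were not read as pairs. Libraries of different groups with the same number had correlations from -0.37 to 0.45 (median 0.06), and 12 of 27 were above 0.1. Those with other numbers had correlations from -0.43 to 0.48 (median -0.04), and 32 of 108 were above 0.1. Counts over all genes moved more. For end stage against normal they were 24 with edgeR, 49 with DESeq2, 50 with limma-voom and 3 to 41 with single libraries left out, 3 without normal replicate 4 and 7 without end-stage replicate 4. For end stage against day 7 they were 28, 52, 124 and 1 to 33, and for end stage against day 28 they were 24, 57, 15 and 5 to 53. For the joint test they were 41, 72, 105 and 12 to 49, and 96 with no filter on low counts. For day 7 against normal they were 3, 4, 10 and 0 to 3, and for day 28 against day 7 limma-voom called 32 where edgeR called 0. Without the libraries under 150000 counts they were 0 for day 7 against normal, 18 for end stage against day 7, 9 for end stage against day 28 and 28 for the joint test. With counts thinned to 200000 they were 1, 19, 14 and 25 in the same order. End stage against day 7 had 14 with a stricter filter, and end stage against day 28 had 44 with none. Mlycd passed for day 28 against day 7 with limma-voom, at 1.68, and for end stage against day 28 with DESeq2, at -1.74. Scd2 at the end stage against normal ranged from -1.13 to -0.81 with single libraries left out, with adjusted p from 0.143 to 0.658 over the 29 alternatives. No named value larger than its error changed direction. A single value smaller than its error was given no direction, though such values count in the lean at the end stage. Other scalings moved the median of all genes by less than 0.1 on the log2 scale. Of the 13 sterol enzymes 10 had too few counts to be tested, while 5980 of all 12799 genes were tested. The parts of library depth and of low RNA level in this were not tested.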
